A study of Mus musculus with 20 samples.

Results

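Ro25 against vehicle is the comparison of 5 arrays of mouse hippocampal cultures given Ro25 with 5 arrays of vehicle-treated cultures, 10 of the 20 arrays in the series. The arrays were chosen by their sample titles alone, and all genes were examined. The dissociated cultures were on day 21 in vitro at treatment and were exposed for 24 h to vehicle (control) or to 1 µM of the compound that the labels name Ro25-4891, called Ro25 here. The other 10 arrays were from cultures given 100 µM AP5 or 100 nM NVP-AAM077 (NVP) for the same time, 5 arrays each. All groups share the culture type, the day and the exposure time, and the labels name no mouse strain. Nothing in the labels says that replicate arrays were separate cultures or animals, so each p-value below reflects only how much these samples scatter, in part perhaps for technical reasons. On each array the RNA of a culture (Cy5) was hybridised with a commercial universal mouse reference RNA (Cy3). A level here is therefore log2(Cy5/Cy3), which compares samples for one gene but not genes with one another.

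NMDA receptors are glutamate-gated channels that pass calcium when glutamate is bound and the membrane is depolarised. Calcium entry through them drives kinases and CREB in the nucleus and so the transcription of immediate early genes (Npas4, Arc, the Fos, Egr and Nr4a families) and of later effectors such as Bdnf and Nptx2. AP5 is a competitive antagonist at the glutamate site of the receptor. The title of the series concerns the induction of Ptgs2 by neuronal activity through NMDA receptors. No structure or subunit preference is given here for Ro25, which is known from the labels by its code alone.

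Of 19352 genes tested, 3 passed an adjusted p of 0.05 for Ro25 against control (0.0155%; limma across all 20 arrays, Benjamini-Hochberg over all genes), and all 3 were lower with Ro25. The 2 described here are Npas4, a neuronal transcription factor that activity induces, and Cnn2, a calponin that binds actin. At an unadjusted p under 0.05 there were 845 genes, where 968 would be expected if none differed, and they were unevenly split, with 572 lower (2.96%) and 273 higher (1.41%) with Ro25. All 5 Ro25 arrays lay below all 5 control arrays for 129 genes (0.667%) and above them for 72 genes (0.372%). Differences were small: 97.1% of them were within 1.2-fold (0.26 on the log2 scale), the median over all genes was 0.00, and the median standard error was 0.096. Only 21 genes had a fitted difference of at least 1.5-fold, 18 of them lower. The highest was Pcp4l1 (0.62, SE 0.194, limma adjusted p = 0.748), named after its value was seen.

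**Figure D1:**
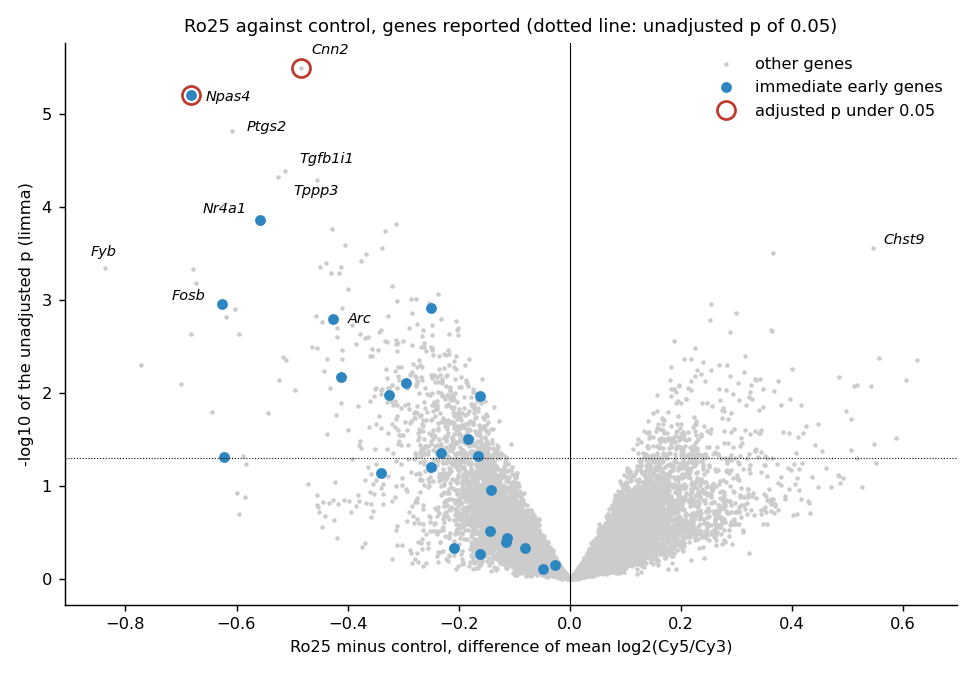
Each point is one of 19350 genes, placed by the difference of mean log2(Cy5/Cy3) between Ro25 and control (x axis) and by −log10 of the unadjusted limma p (y axis). The 2 ringed genes, Npas4 and Cnn2, lie left of 0, and so do all 24 immediate early genes (blue).

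Arrays sat on 7 slides, and slide and group were largely joined. Slide 4 held Ro25 arrays 1, 4 and 5 and control array 3, and slide 5 held the other 4 control arrays. Ro25 array 3 shared slide 3 with NVP arrays, and Ro25 array 2 shared slide 6 with an AP5 array and was scanned on the second day. On Ro25 arrays 59.2 to 69.9% of spots cleared the background in red, and on control arrays 62.8 to 69.0%. The small number of arrays, 5 a group, limits the precision. The labels call the tissue neurons: all 16 pan-neuronal markers were well above background on all 10 arrays, and so were all 19 astrocyte markers and 10 of 17 microglia markers. In such bulk samples fewer cells of a type and less RNA per cell cannot be told apart.

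Npas4, a bHLH-PAS factor that acts at enhancers and promoters of activity-regulated genes, was read from 1 probe (chr19:4879639-4879698 in mm7, the build named in the file headers). Its level was 1.40, 1.43, 1.67, 1.66 and 1.38 on control arrays 1 to 5 and 0.96, 1.03, 0.67, 0.92 and 0.54 on Ro25 arrays 1 to 5. The highest Ro25 array was below the lowest control array. With Ro25, Npas4 fell by 0.68 log2 units (1.60-fold, SE 0.112, 95% interval −0.92 to −0.45, limma adjusted p = 0.0478), with 5 of 5 Ro25 arrays below the control mean.

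Cnn2, read at chr10:79775056-79775115 (mm7), had control levels of −4.14, −4.06, −3.80, −4.02 and −3.95. With Ro25 its levels were −4.49, −4.56, −4.49, −4.52 and −4.35, so the groups did not overlap and the Ro25 arrays lay within a narrow range. Cnn2 fell by 0.48 (1.40-fold, SE 0.0755, interval −0.64 to −0.33, limma adjusted p = 0.0478). Whether the probes lie in exons or untranslated regions was not analysed here. These calls were near the threshold. No gene passed when Ro25 array 1, 4 or 5 or control array 2, 3, 4 or 5 was left out, with smallest adjusted p-values of 0.066 to 0.175. Without control array 1 Cnn2 and Ptgs2 passed, without Ro25 array 2 there were 2 genes, Npas4 among them, and without Ro25 array 3 only Hcls1 (adjusted p = 0.0461). With slide as a fixed block no gene passed; the differences were then −0.86 for Npas4 and −0.65 for Cnn2, which equal the difference between the 3 Ro25 arrays and the 1 control array of slide 4.

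**Figure D2:**
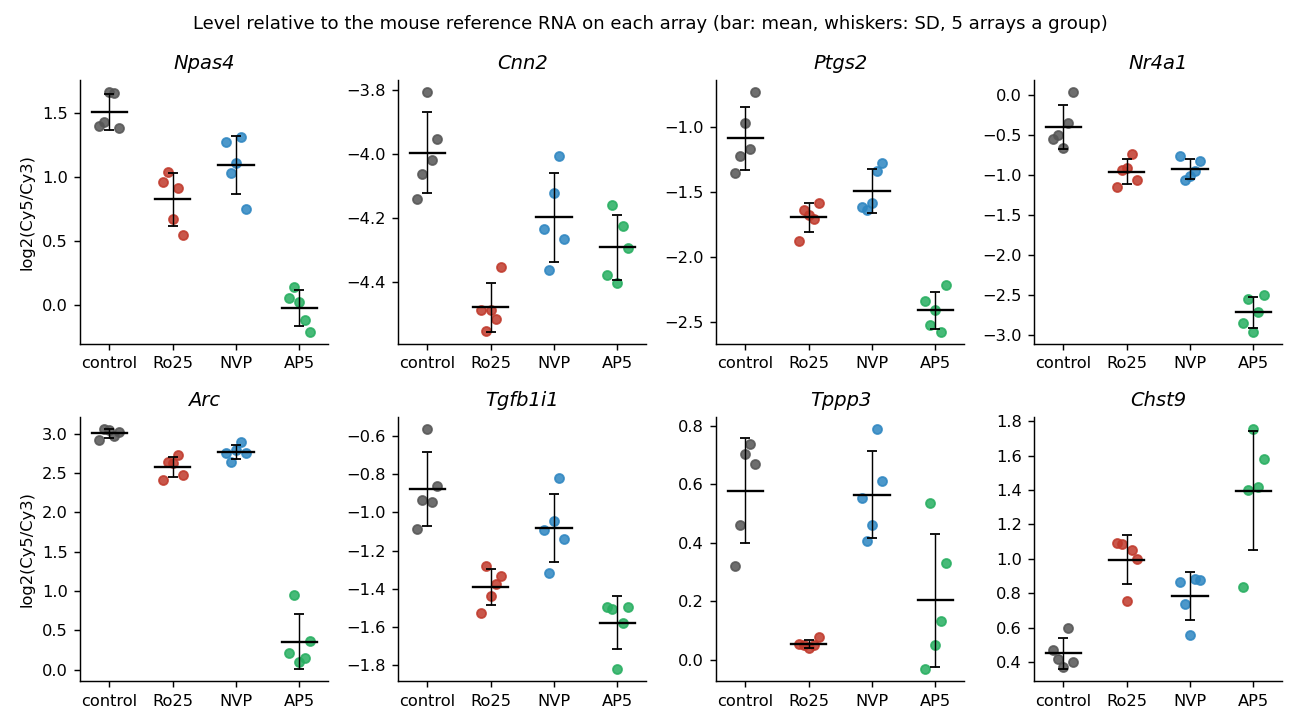
Level of 8 genes as log2(Cy5/Cy3) on the 5 arrays of each group (points), with the group mean (bar) and SD (whiskers); axes differ between panels. Ro25 arrays lie below every control array for Npas4, Cnn2, Ptgs2, Nr4a1, Arc, Tgfb1i1 and Tppp3 and above every control array for Chst9.

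Promoters are shown for Npas4 and Cnn2, both past the threshold, and for the activity-regulated genes Ptgs2 and Nr4a1, which did not pass, so that their matches to the CREB motif can be compared. The sequences are from RefSeq (GRCm38.p6) and run 5′ to 3′ on the gene's strand over 300 bases around the gene's start. Capitals mark matches to the short form of the cAMP response element (TGACG or, on the other strand, CGTCA), the sequence that CREB binds.
Npas4 (chr19:4989922-4990221, minus strand): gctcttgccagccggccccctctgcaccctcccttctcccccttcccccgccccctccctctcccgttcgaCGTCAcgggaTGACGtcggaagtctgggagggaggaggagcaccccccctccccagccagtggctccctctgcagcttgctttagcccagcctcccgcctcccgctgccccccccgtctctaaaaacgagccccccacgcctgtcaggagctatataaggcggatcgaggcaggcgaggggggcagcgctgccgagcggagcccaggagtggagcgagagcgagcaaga
Cnn2 (chr10:79988350-79988649, plus strand): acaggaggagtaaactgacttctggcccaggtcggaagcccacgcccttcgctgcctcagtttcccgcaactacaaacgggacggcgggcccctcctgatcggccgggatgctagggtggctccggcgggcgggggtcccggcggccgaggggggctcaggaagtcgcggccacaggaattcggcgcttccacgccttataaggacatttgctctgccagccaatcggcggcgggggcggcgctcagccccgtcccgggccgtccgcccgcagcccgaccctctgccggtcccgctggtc
Ptgs2 (chr1:150099781-150100080, plus strand): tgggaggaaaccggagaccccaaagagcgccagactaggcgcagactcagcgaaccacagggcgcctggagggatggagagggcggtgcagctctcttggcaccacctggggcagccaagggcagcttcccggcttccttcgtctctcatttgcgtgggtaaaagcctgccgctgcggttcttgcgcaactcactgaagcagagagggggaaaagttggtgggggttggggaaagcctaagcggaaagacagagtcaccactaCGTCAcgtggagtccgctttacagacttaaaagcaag
Nr4a1 (chr15:101266596-101266895, plus strand): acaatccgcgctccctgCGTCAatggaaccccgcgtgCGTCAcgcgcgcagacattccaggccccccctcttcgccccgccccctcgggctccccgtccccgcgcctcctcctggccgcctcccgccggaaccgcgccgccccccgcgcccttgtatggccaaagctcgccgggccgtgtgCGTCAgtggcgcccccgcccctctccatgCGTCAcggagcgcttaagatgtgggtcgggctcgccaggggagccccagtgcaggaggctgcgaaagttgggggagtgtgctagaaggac

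The short form matched 4 times in the Nr4a1 window, 2 times in Npas4, once in Ptgs2 and not in Cnn2. Among 32851 promoters of the same length in the table, 20.8% hold at least 1 match. The full element (TGACGTCA) is in 1.79%, the AP-1 site (TGAGTCA or TGACTCA) in 5.2% and the E-box form CATCTG or CAGATG in 17.2%, and none of these was in the 4 windows. A match describes the letters only and shows no binding, and no match says only that these letters are not in this window.

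Immediate early genes, the first transcripts that activity induces, were all on the lower side. All 24 members were tested: 1 passed (Npas4), 13 were lower and 0 higher at an unadjusted p under 0.05, and 24 of 24 fitted differences were below 0. Their median difference was −0.22, beside 0.00 over all genes, and 5 of the 24 did not overlap between groups. Over all genes 2.96% were lower and 1.41% higher at an unadjusted p under 0.05, and 0.667% lay wholly below control. The same shares stand beside the counts of the lists below. The mean level of the list was −1.10 to −0.95 on the Ro25 arrays and −0.88 to −0.60 on the control arrays, so no Ro25 array reached a control array. The list's direction had been seen in these data before and is given as a description. Across the 24 alternative settings, 22 to 24 members were below 0 and 5 to 14 were lower at an unadjusted p under 0.05; with slide as a fixed block these were 22 and 8, and with median centring 5 were lower at that level.

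Nr4a1, an orphan nuclear receptor, had control levels of −0.54, −0.50, −0.66, −0.34 and 0.04 and Ro25 levels of −1.15, −0.94, −0.90, −0.74 and −1.06. The groups did not overlap, and control array 5 stood highest. The difference was −0.56 (SE 0.118, limma adjusted p = 0.315). Arc, which acts in AMPA receptor endocytosis at synapses, lay between 2.92 and 3.05 in control and between 2.41 and 2.73 with Ro25, a gap with little spread on either side (−0.43, SE 0.117, adjusted p = 0.697). Fosb, a partner of Jun in AP-1, was −1.03 to −0.88 in control and −2.26 to −1.20 with Ro25, where array 1 was lowest (−0.63, SE 0.164, adjusted p = 0.629). Ccn1, a secreted matricellular protein, also did not overlap (−0.25, SE 0.066, adjusted p = 0.65).

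Other members overlapped between groups. Fos, the founding AP-1 subunit, ranged from −2.76 to −1.25 in control and from −3.29 to −2.07 with Ro25 (−0.62, SE 0.296), with array 5 highest in both groups. The zinc finger factor Egr3 read 2.75, 2.35, 2.94, 2.56 and 2.44 in control and 2.04, 2.69, 2.12, 2.14 and 1.99 with Ro25. Ro25 array 2 was thus inside the control range and the other 4 Ro25 arrays were below it (−0.41, SE 0.136). Egr2 stood at −0.33 (SE 0.115), Egr1 at −0.34 (SE 0.179) and Junb at −0.25 (SE 0.126). Nr4a2, a second orphan receptor of its family, stood at −0.29 (SE 0.0993). None of these passed by limma (adjusted p of 0.812 or above). Fosb, Ccn1, Egr1, Egr2, Junb and Nr4a2 were named after their values were seen.

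**Figure D3:**
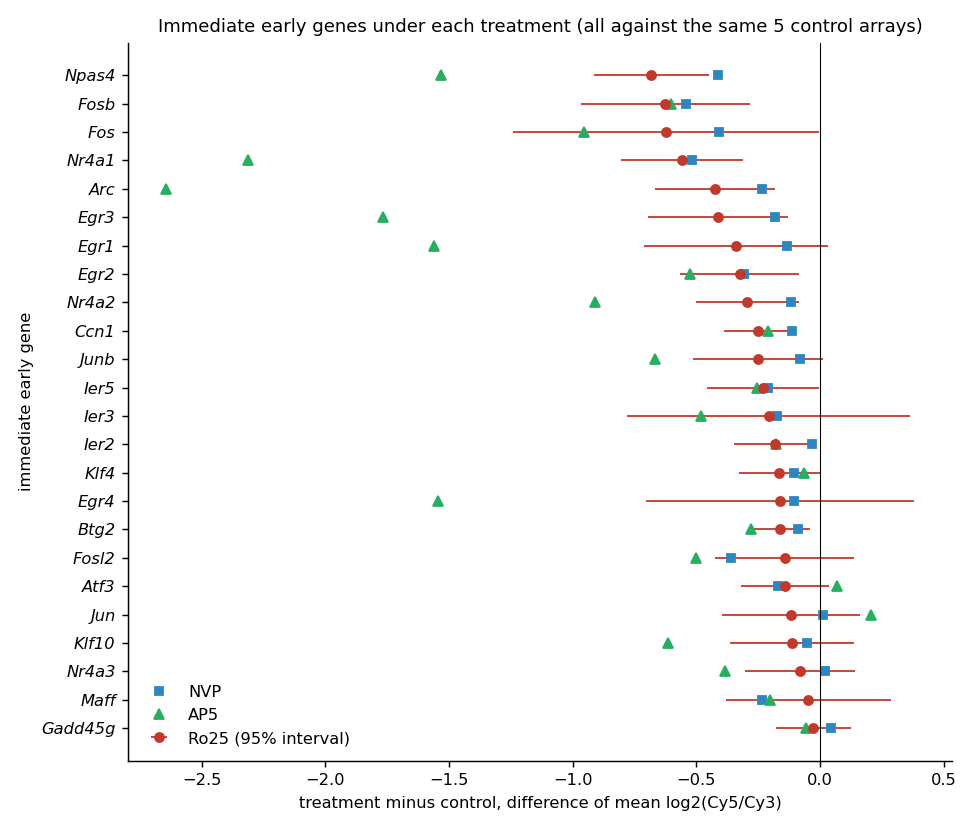
Difference of mean log2(Cy5/Cy3) from control for 24 immediate early genes (rows) under Ro25 (red, with its 95% interval), NVP (blue) and AP5 (green). All red points lie below 0, from −0.68 (Npas4) to −0.03, and all 3 treatments share the same 5 control arrays.

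Ptgs2, the inducible cyclooxygenase of prostaglandin synthesis that the title of the series names, did not pass. Control arrays read −1.36, −1.22, −0.97, −1.17 and −0.73 and Ro25 arrays −1.88, −1.64, −1.68, −1.71 and −1.59. The groups did not overlap, and the Ro25 values lay closer together (SD 0.11) than the control values (SD 0.24). The difference was −0.61 (1.52-fold, SE 0.107, limma adjusted p = 0.0731), and the other Ptgs2 probe gave −0.55 (SE 0.103). Ptgs2 passed when slide was a random block, with the replicate block and without control array 1. Of 16 prostaglandin pathway genes tested, 1 (Ptgs2) was lower and 0 were higher at an unadjusted p under 0.05, and the list's median was −0.01. Ptges, the inducible prostaglandin E synthase that acts after Ptgs2, stood at −0.26 (SE 0.135, adjusted p = 1).

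Among 25 later activity-regulated genes 0 passed by limma; 6 were lower and 1 higher at an unadjusted p under 0.05, and the median was −0.01. The 6 were Ptgs2, Rgs2, Per1, Bdnf, Nptx2 and Gadd45b. Rgs2, which limits G protein signalling, read 1.18 to 1.57 in control and 0.87 to 1.14 with Ro25 with no overlap (−0.34, SE 0.096, adjusted p = 0.697). Nptx2, a secreted pentraxin that clusters AMPA receptors, read 2.14 to 2.41 in control and 1.72 to 2.12 with Ro25 with no overlap (−0.31, SE 0.127). Bdnf, a neurotrophin, read 2.12 to 2.57 in control and 1.84 to 2.14 with Ro25 (−0.31, SE 0.122), and its second probe gave −0.25. Per1 stood at −0.33 (SE 0.119) and Gadd45b, a stress-inducible regulator of DNA demethylation, at −0.25 (SE 0.0932). The 1 gene higher at an unadjusted p under 0.05 was Pdyn, the precursor of dynorphin (0.52, SE 0.247, adjusted p = 1). Of the 25 fitted differences 13 were below 0 and 12 above it. With slide as a fixed block 2 in place of 6 were lower at that level.

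Of 12 genes of ERK feedback, which dampen the kinase cascade that links calcium to these promoters, 0 passed by limma and 2 were lower at an unadjusted p under 0.05. The phosphatase Dusp1 did not overlap between groups (−0.30, SE 0.0969), and Dusp6 did (−0.27, SE 0.0847). Both had an adjusted p of 0.797. Of 17 calcium and CREB signalling genes 0 passed, 0 were lower and 2 were higher at an unadjusted p under 0.05, Nos1, the neuronal nitric oxide synthase (0.45, SE 0.179, adjusted p = 1), and Ppp3cb, a calcineurin catalytic subunit (0.21, SE 0.0729, adjusted p = 0.812). Both signs turned with slide as a fixed block, to −0.08 and −0.01, and not with slide as a random block (0.46 and 0.22).

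No difference was detectable in the genes of the receptors themselves. Of the 7 NMDA receptor subunit genes 0 were past an unadjusted p of 0.05, and the fitted differences ran from −0.24 for Grin2d (SE 0.21) to 0.15 for Grin2b (SE 0.218). Grin1, the obligatory subunit, stood at 0.00 (SE 0.173, 95% interval −0.36 to 0.36). Grin2a stood at 0.08 (interval −0.19 to 0.36). Grin2c stood at 0.07 (SE 0.349), Grin3a at 0.08 (SE 0.133) and Grin3b at 0.04 (SE 0.114). The intervals are wide beside most of these fitted differences and leave room for larger changes and for either sign, most of all for Grin2c. The sign of Grin1, Grin2a, Grin2b, Grin2c, Grin3a and Grin3b turned under at least 1 alternative. The 12 GABA-A receptor subunits, which form the main inhibitory channels, were all on the higher side, from 0.02 to 0.27, with a median of 0.17 and 0 past an unadjusted p of 0.05. The highest was Gabra2 (0.27, SE 0.182, adjusted p = 1). The list's mean level overlapped between groups, at 4.41 to 4.64 with Ro25 and 4.04 to 4.49 in control, with control array 5 lowest. Members of one list share arrays, so equal signs within a list are not independent.

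A second set of genes near the top of the ranking belonged to the cytoskeleton. Tgfb1i1 (Hic-5), a focal adhesion adaptor, read −1.09, −0.93, −0.56, −0.95 and −0.86 in control and −1.52, −1.28, −1.44, −1.38 and −1.34 with Ro25. The groups did not overlap, and the difference was −0.51 (SE 0.0977, limma adjusted p = 0.142), with the 2 other probes at −0.39 and −0.27. Crip1, a LIM domain protein, overlapped through Ro25 array 3 (−0.40, SE 0.0909, adjusted p = 0.381). A list of 26 actin-binding and contractile genes was written after Cnn2, Tgfb1i1 and Crip1 had been seen, so it is no independent evidence. In it 1 passed (Cnn2), 9 were lower and 0 higher at an unadjusted p under 0.05, and 25 of 26 differences were below 0, with a median of −0.15. Its members include Zyx, a focal adhesion protein (−0.25, SE 0.0688), and Flna, an actin crosslinker (−0.34, SE 0.132). The list's mean level was −2.06 to −1.95 on Ro25 arrays and −1.89 to −1.75 on control arrays. Without control array 3, 5 in place of 9 members were lower at an unadjusted p under 0.05, and with median centring in place of loess 3 were.

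Tppp3, a tubulin polymerisation-promoting protein, had little spread with Ro25. Control arrays read 0.32, 0.46, 0.70, 0.74 and 0.67, and Ro25 arrays 0.05, 0.05, 0.04, 0.05 and 0.08. The Ro25 arrays thus spanned far less (SD 0.01) than the control arrays (SD 0.18), and every one was lower. The difference was −0.52 (SE 0.101, limma adjusted p = 0.142). Ccn2, a secreted matricellular protein named after its value was seen, overlapped between groups (−0.52, SE 0.174, adjusted p = 0.812).

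**Figure D4:**
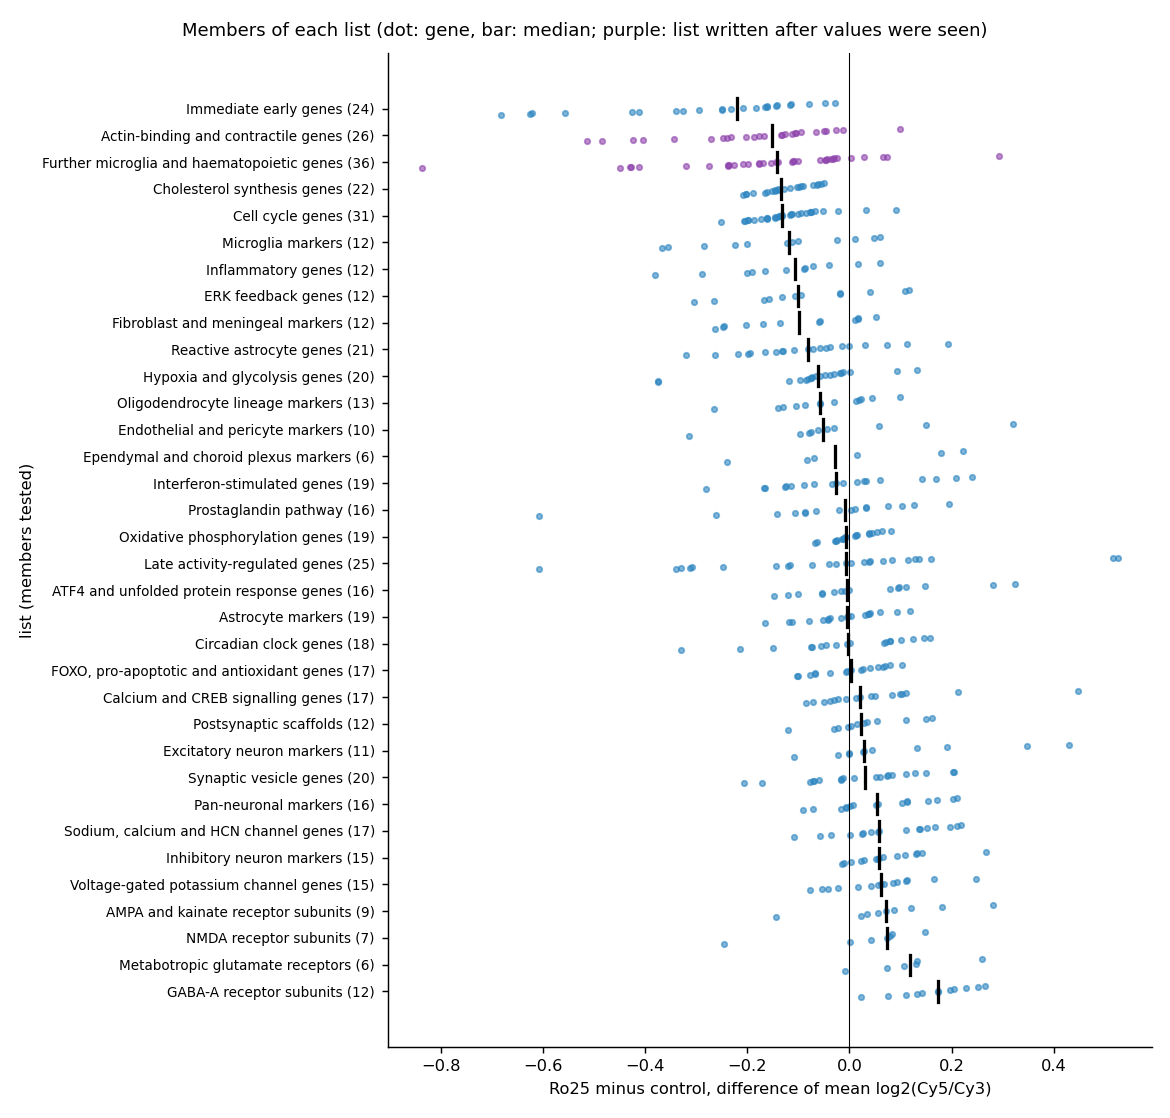
Fitted difference of mean log2(Cy5/Cy3), Ro25 minus control, for the members of 34 lists (dots), with the median of each list (bar) and the number tested in brackets. Medians run from −0.22 for immediate early genes to 0.17 for GABA-A receptor subunits; purple lists were written after values were seen.

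Markers of cells other than neurons were also measured beside these genes. Of 12 tested microglia markers 0 passed by limma, 3 were lower at an unadjusted p under 0.05, and the median was −0.12; Itgam, P2ry12, C1qa, C1qc and Ptprc were too dim to be tested. Cd68, a lysosomal glycoprotein of phagocytes, read −2.54, −2.22, −2.51, −2.21 and −2.06 in control and −2.64, −2.72, −2.72, −2.58 and −2.72 with Ro25 (−0.37, SE 0.0841, adjusted p = 0.381), with a narrow gap between groups. Fcer1g, the common gamma chain of Fc receptors, did not overlap either (−0.36, SE 0.106). Of the 12 markers 9 were below 0 and 3 above it. Without Ro25 array 3 there were 5 in place of 3 that were lower at an unadjusted p under 0.05, and with slide as a fixed block or with median centring there were 0. The mean level of the microglia list was −2.70 to −2.41 on Ro25 arrays and −2.49 to −2.15 on control arrays.

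A further list of 36 microglia and haematopoietic genes was written after Hcls1 had been seen, so it is no independent evidence. In it 0 passed by limma, 12 were lower and 0 higher at an unadjusted p under 0.05, and the median was −0.14. Of the 36 genes 31 were below 0 and 5 above it. With median centring 5 in place of 12 were lower at that level. Hcls1, a haematopoietic cortactin relative, read −3.38 to −3.27 in control and −3.94 to −3.39 with Ro25, where array 3 alone came close to control (−0.43, SE 0.0924, limma adjusted p = 0.315). Fyb, an adaptor of haematopoietic cells, showed the same array apart: Ro25 array 3 read −3.96 against −5.08 to −4.74 on the other 4, and −4.02 to −3.65 in control (−0.84, SE 0.199, adjusted p = 0.401). Olfml3 (−0.45, SE 0.107) and the receptor Il6ra (−0.41, SE 0.0977) also stood high in the ranking. Spp1 (osteopontin), at −8.73 against −8.30 in control, did not overlap (−0.43, SE 0.104). The list's mean level ran from −2.61 to −2.35 on Ro25 arrays and from −2.42 to −2.19 on control arrays. The part of these markers in the difference of Cnn2 was not tested.

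Of 12 fibroblast and meningeal markers 4 were lower at an unadjusted p under 0.05 and 0 passed by limma, with a median of −0.10. In this list 8 were below 0 and 4 above it. Over the alternatives 0 (median centring) to 5 were lower at that level, and the median was 0.00 with slide as a fixed block. Col1a2, a collagen chain, did not overlap between groups (−5.22 to −5.02 in control, −5.44 to −5.36 with Ro25; −0.26, SE 0.0745), nor did Fn1, fibronectin (−0.20, SE 0.0579). Col1a1 (−0.25, SE 0.075) and Col3a1 (−0.25, SE 0.0821) overlapped. With the series' value table Col3a1 stood at 0.15. The list's mean level was −2.40 to −2.27 on Ro25 arrays and −2.34 to −2.16 on control arrays, with control array 3 inside the Ro25 range. Of 12 inflammatory genes tested 3 were lower at an unadjusted p under 0.05, the chemokines Cxcl1 (−0.38, SE 0.141) and Ccl5 (−0.29, SE 0.115) and Nfkb2 (−0.17, SE 0.0624), and 0 passed. Among the 12, 10 were below 0 and 2 above it, and over the alternatives 0 to 5 were lower at that level. Of 21 reactive astrocyte genes 3 were lower at an unadjusted p under 0.05, among them C3, a complement component (−0.22, SE 0.0624), and 0 passed. Among the 21, 17 were below 0 and 4 above it. Over the alternatives 0 to 5 of the 21 were lower at that level, and their median ran from −0.20 to 0.10.

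Neuronal and astrocyte markers had medians near 0. Of 16 pan-neuronal markers 0 were past an unadjusted p of 0.05 (median 0.05), of 11 excitatory markers 0 (median 0.03), and of 19 astrocyte markers 0 (median 0.00). Of 15 inhibitory markers 1 was past it, Lhx6, on the higher side (0.27, SE 0.125), and its value was −0.08 with slide as a fixed block and 0.27 with it as a random one. Gfap, the astrocyte intermediate filament, spread widely within both groups. It read 5.801, 5.57, 3.98, 5.10 and 5.89 in control and 4.92, 3.50, 5.73, 5.55 and 6.45 with Ro25, so that control array 3 and Ro25 array 2 were the lowest of their groups. The difference was −0.04 (SE 0.647, interval −1.39 to 1.31); its sign turned under several settings. Mki67, a marker of dividing cells, stood at −0.20 (SE 0.181, interval −0.58 to 0.18). Of 31 cell cycle genes 2 were lower at an unadjusted p under 0.05, Tk1 (−0.21, SE 0.0685) and Ube2c (−0.20, SE 0.0781), and 29 of 31 were below 0 (median −0.13). Without Ro25 array 4 there were 16 in place of 2 lower at that level, without control array 5 there were 6, without control array 2 there was 1, with array weights 9 and with median centring 0. With slide as a fixed block 1 was, and 21 of 31 were below 0.

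Cholesterol synthesis genes were also all on one side. All 22 fitted differences were below 0, with a median of −0.13, and 0 were past an unadjusted p of 0.05. The list's mean level was 0.06 to 0.48 with Ro25 and 0.17 to 0.61 in control, with array 5 the lowest of both groups, so the groups overlapped. Array 5 was also the lowest with NVP (0.12) and with AP5 (−0.11), and the reactive astrocyte list was highest on array 5 of all 4 groups (−1.71 to −1.60, the other arrays −2.37 to −2.07). Oxidative phosphorylation genes (19 tested, median −0.01) and genes of FOXO, apoptosis and antioxidant defence (17 tested, median 0.00) had 0 members past an unadjusted p of 0.05. Of 16 ATF4 and unfolded protein response genes 0 were lower and 1 was higher at an unadjusted p under 0.05, Atf5, a stress-response transcription factor (0.28, SE 0.0891, adjusted p = 0.79).

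**Figure D5:**
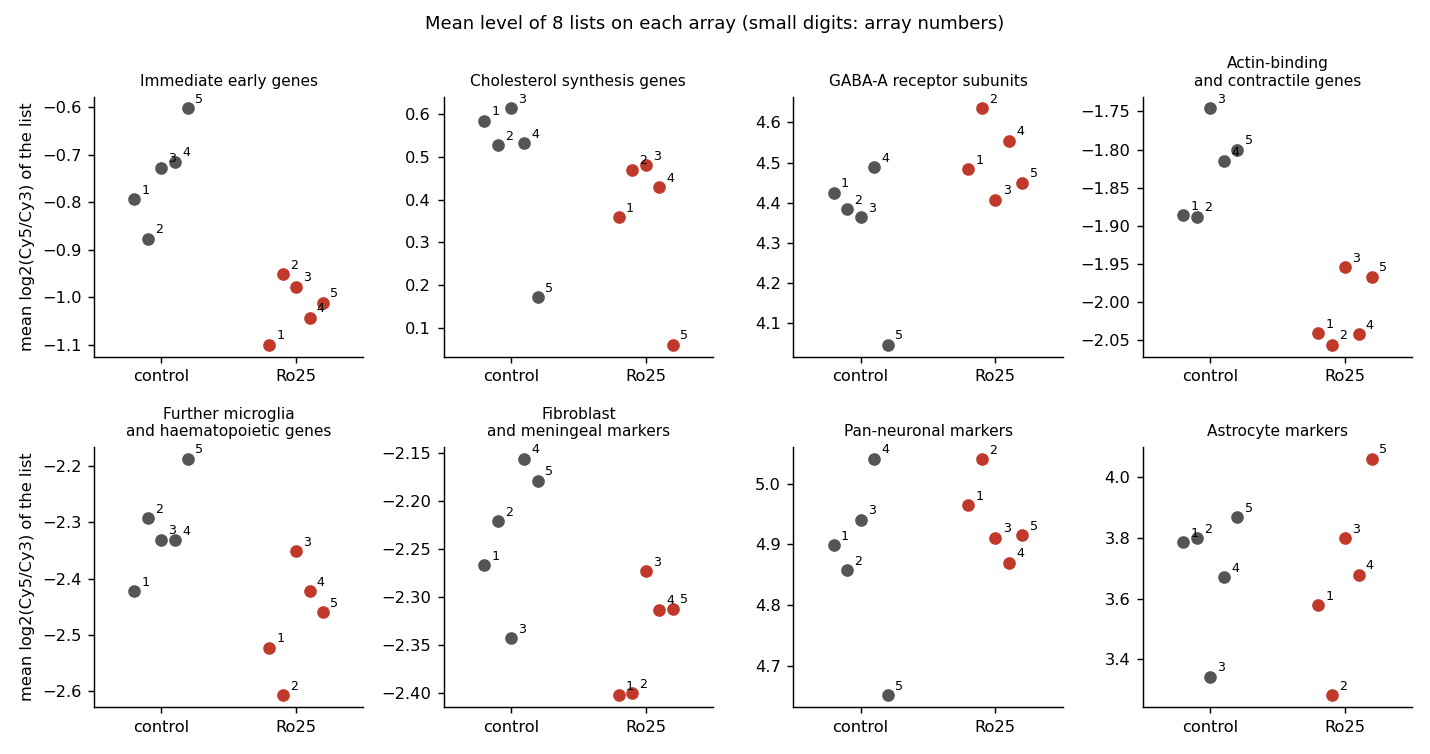
Mean log2(Cy5/Cy3) of the tested members of 8 lists on each control and Ro25 array (points, labelled with the array number); axes differ between panels. Groups do not overlap for immediate early genes and for actin-binding and contractile genes, and they overlap for the other 6 lists.

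On the higher side no gene passed by limma. Chst9, which sulfates sugar chains of glycoproteins, came nearest: it read 0.47, 0.42, 0.37, 0.60 and 0.40 in control and 1.09, 1.08, 0.75, 1.05 and 1.00 with Ro25. Every Ro25 array was above every control array, and the difference was 0.55 (1.46-fold, SE 0.123, limma adjusted p = 0.381). With the series' value table Chst9 passed (adjusted p = 0.0348). The transcript F730043M19Rik (0.36, SE 0.0837, adjusted p = 0.381) and D930048N14Rik (0.25, SE 0.0667) did not overlap either. The same held for Npr3, the natriuretic peptide clearance receptor (0.30, SE 0.0804), Ccdc74a (0.36, SE 0.102), Eif1b (0.29, SE 0.0816), Cfap161 (0.19, SE 0.055) and the probe BI692008 (0.23, SE 0.0675). Gm6212 (0.36, SE 0.103) and Matn2, a matrilin of the extracellular matrix (0.31, SE 0.0966), overlapped. On the lower side Mfsd13b, a member of a transporter family, was also among the 10 highest-ranked genes (−0.31, SE 0.0668, adjusted p = 0.315).

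Some genes were at background on every array of one group, so their level there was not measured and their fitted folds are no bounds. With Ro25 the fitted values were 1.17-fold lower for B230208H21, 1.18-fold for TC1455119 and 1.17-fold for the histamine receptor Hrh2. They were 1.16-fold higher for Shcbp1l, 1.14-fold for the thyrotropin-releasing hormone receptor Trhr2 and 1.12-fold for Stfa3. None of the 6 passed by limma (adjusted p of 0.748 or above).

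Ro25 was then compared with the 2 other compounds directly, as differences that leave out the control means; the control arrays enter only the shared estimate of the spread. The doses differ (1 µM against 100 µM and 100 nM), so these contrasts compare the treatments as given. Slide and treatment were largely joined here too. AP5 array 1 shared slide 6 with Ro25 array 2, and the other AP5 arrays were on slides 1, 2 and 7, without Ro25 arrays. AP5 array 1 was scanned on the second day and AP5 array 3 on the third. The alternative settings were examined for Ro25 against control only. Between Ro25 and AP5 601 genes passed (3.11%), and between Ro25 and NVP 0 of 19352 passed (0%; limma adjusted p, smallest 0.745). Between Ro25 and NVP 1147 genes were at an unadjusted p under 0.05, where 968 would be expected if none differed. Of the 24 immediate early genes 8 were higher with Ro25 than with AP5 and 0 lower. Arc was 2.22 higher (limma adjusted p = 7.49e-10), Nr4a1 1.75 higher (1.51e-08), Egr3 1.36 (3.82e-06), Egr1 1.22 (0.000269), Npas4 0.85 (9.28e-05) and Nr4a2 0.61 (0.000743). The other two were Egr4 and Klf10. Among later genes Bdnf was 1.29 higher (2.42e-06), Nptx2 0.85 (0.000342), Rgs2 0.79 (3.16e-05) and Ptgs2 0.71 (0.000342), and the ERK phosphatase Dusp6 was 0.89 higher (2.43e-06). Nos1 was 1.77 lower with Ro25 than with AP5 (3.82e-06).

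Some other genes near the top of the Ro25 ranking, given next, did not pass between Ro25 and AP5. Cnn2 was 0.19 lower with Ro25 (SE 0.0755, limma adjusted p = 0.241) and Tgfb1i1 0.19 higher (SE 0.0977, adjusted p = 0.448). Fosb differed by −0.02 (SE 0.164, adjusted p = 0.984), Fyb by −0.18 (SE 0.199, adjusted p = 0.83) and Hcls1 by −0.04 (SE 0.0924, adjusted p = 0.941). A p that misses the threshold does not show that the 2 treatments act alike. Against the shared control arrays, the differences for Ro25, NVP and AP5 were −0.68, −0.41 and −1.53 for Npas4 and −0.48, −0.20 and −0.30 for Cnn2. For Ptgs2 they were −0.61, −0.40 and −1.32, and for Arc −0.43, −0.23 and −2.65. Of the 36 further microglia and haematopoietic genes, 31 were below 0 with Ro25, 33 with NVP and 27 with AP5 (medians −0.14, −0.15 and −0.09). For the 12 microglia markers these counts were 9, 12 and 9. For the 26 actin-binding and contractile genes they were 25, 21 and 21. These triplets and counts share their control arrays, so their likeness is no independent evidence. Directly against NVP, Npas4 stood at −0.27 (interval −0.50 to −0.04) and Cnn2 at −0.28 (−0.44 to −0.12), and neither passed by limma across all genes (adjusted p of 0.745 or above). Tppp3 stood at −0.51 against NVP (interval −0.72 to −0.30, adjusted p = 0.745).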

How the data were processed

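The members and gene lists were chosen with earlier results of these data known, and 2 of the lists described were added after values were seen. One gene past the threshold is not reported here. The authors deposited 2-colour Agilent scanner output (per the file headers, Feature Extraction 10.7.3.1; per the submitters' processing notes, 11.0), whose spot values are intensities on a linear scale, and a table of log2 ratios. That deposited log2 table followed the deposited log10 ratio of the scanner (red over green of the processed signals, per the file headers) in direction on every array. With the scanner's ratio converted to log2, the slope was 0.835 to 0.858 over 11130 probes. The centring of the deposited log2 table is unknown. Dyes were not swapped. From the intensities, normexp background correction (offset 50) and loess within arrays were applied, control and outlier spots left out, and a probe needed red signal clear of the background on 5 or more of the 20 arrays to stay. Each gene took its brightest probe (12781 genes had 1 probe, 6571 had 2 or more). Of the values in the Ro25 and control arrays 19 were missing. Probes were named through RefSeq's gene list (GRCm38.p6): 23082 by accession, 6582 by symbol, 3073 by synonym, 292 by gene ID; the other 8145 carry the name the file gives. limma 3.58.1 (R 4.3.3) fitted a mean per group over 20 arrays (residual df 16), two-sided. Named genes were those past an adjusted p of 0.05, the 10 highest and 10 lowest by moderated t among genes detected on 3 or more arrays per group, up to 3 genes a direction not detected in one group, Ptgs2, Arc, Fos, Npas4, Nr4a1, Egr3, Bdnf, Nptx2, Nos1, Gfap, Mki67 and the NMDA receptor subunits, and up to 2 members per list; others are said to be chosen after their values were seen, as are further list members at an unadjusted p under 0.05. Sample numbers were not taken to pair arrays.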

Additional observations from a re-analysis of the deposited data

Results flagged for a closer look

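Each of 102 genes named or listed here was looked at in both groups for 1 array standing apart from the other 4 (Dixon's 95% limit). In 204 groups 11 flags arose, where chance gives about 1 in 20 groups.

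Among Ro25 arrays, array 2 stood apart for Egr3 (2.69, the others 1.99 to 2.14) and for Fcer1g (−4.21, the others −3.87 to −3.74). Array 3 stood apart for Chst9 (0.752, the others 1.00 to 1.09), Mpeg1, a macrophage pore-forming protein (−2.77, the others −3.07 to −2.999), and Tpm2, a tropomyosin (−4.04, the others −4.38 to −4.29). Array 1 stood apart for Ccl5 (−3.99, the others −4.09 to −4.07), array 4 for Zyx (−1.73, the others −1.52 to −1.44), and array 5 for Gm6212 (0.0825, the others 0.40 to 0.44). Among control arrays, array 5 stood apart for Grin2d (−0.250, the others 0.33 to 0.48) and Klf4, a zinc finger factor (−3.77, the others −4.13 to −4.06), and array 2 for Zyx (−1.49, the others −1.27 to −1.19).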

How the results depend on the processing

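Of 102 genes 90 kept their direction in every alternative setting that gave them a value (22 to 24 settings a gene), and Npas4, Cnn2 and Ptgs2 were lower in all 24. The 3 calls did not hold in several: 0 genes passed without background correction, with median centring, with the scanner's processed signals, without the filter on dim probes, with only the 10 Ro25 and control arrays, with slide as a fixed block and on the first scan day only (limma, smallest adjusted p 0.0505 to 0.275). Leaving out 1 array at a time gave 0 to 2 genes. Deviations of same-numbered arrays correlated at −0.16, −0.33, 0.05, −0.45 and 0.68, so those of number 5 moved together and the others did not. Some differently numbered arrays did too (Ro25 4 with control 2 at 0.78, 2 with 3 at 0.72, 1 with 4 at 0.65). The numbers were therefore not taken as pairs; the replicate block gave 2 genes, Npas4 and Ptgs2.

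Directions reversed as follows, and the cause was not tested. With slide as a fixed block the differences were 1.66 for Gfap, −0.357 for Grin1, −0.338 for Grin2a, −0.530 for Grin2b, −0.175 for Grin3a, −0.0842 for Nos1, −0.0802 for Lhx6 and −0.00597 for Ppp3cb. On the first scan day they were 0.392 for Gfap, −0.144 for Grin1 and −0.01805 for Grin2a. With array weights they were 0.0491 for Gfap and −0.08946 for Grin1. The value table gave −0.048 for Grin1, 0.149 for Col3a1 and 0.105 for Cd37. Grin1 was −0.02618 with median centring and −0.003261 with slide as a random block. Without background correction Grin2a was −0.0171 and Grin2c −0.0050, and with processed signals Grin2a was −0.0885. Leaving out 1 array gave −0.363 to 0.392 for Gfap, −0.144 to 0.117 for Grin1, −0.01805 to 0.173 for Grin2a, −0.0947 to 0.237 for Grin2c, −0.006447 to 0.126 for Grin3a and −0.0237 to 0.0839 for Grin3b.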
